A study of Mus musculus with 2 samples.

Results

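The 10 genes described here, *Ern1*, *Atf6*, *Xbp1*, *Hspa5*, *Dnajb9*, *Pdia4*, *Herpud1*, *Atf4*, *Ddit3* and *Trib3*, are genes of the unfolded protein response (UPR). They were chosen by gene symbol, and the estimated read counts of all transcripts listed under a symbol were summed for each library. The deposited table held 45777 genes, of which 15857 had at least 10 counts in at least 1 library, and all 10 UPR genes were among these. The RNA came from livers of C57BL/6 mice (C57BL/6 N in the study's methods) that were put on a high-fat diet (HFD) at an age of 7 weeks and kept on it for 18 weeks. At week 13, an adeno-associated virus (AAV) was given by retro-orbital injection, and 5 weeks followed until the end of the diet. Mice of the control group received AAV-GFP, which carries green fluorescent protein, and mice of the other group received AAV-Wee1-AS, which carries the long noncoding RNA *Wee1-AS*. All livers were thus exposed to the HFD and to a virus. The AAV-Wee1-AS vector was of the AAV9 serotype with the CMV promoter, neither of which is restricted to hepatocytes.

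Poly-A RNA of 1 library per group was analysed here, although the series' design text speaks of 4 livers. Whether RNA of several mice was pooled, and the sex of the mice, are not given in the sources used here. Each value below compares 2 libraries, with no replicate check and no p-value. Brackets hold exact (Clopper-Pearson) 95% intervals. With 1 library per group, they cover counting error only and hold no spread between animals or preparations. PCR copies of a molecule are counted as separate reads, so the intervals may be too narrow even for counting error. *Wee1-AS* itself was not analysed here.

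The endoplasmic reticulum (ER) folds the secreted and membrane proteins of a cell, and hepatocytes, which secrete most plasma proteins, carry a large ER. When unfolded proteins build up, sensors in the ER membrane start the UPR: IRE1 splices *Xbp1* mRNA, ATF6 is cut to release a transcription factor, and PERK phosphorylates eIF2 alpha, which lowers protein synthesis and favours translation of ATF4. The targets of these branches are chaperones, the machinery that degrades misfolded ER proteins, and, through ATF4 and CHOP, genes of amino acid metabolism and cell death. ATF6 and ATF4 are mainly regulated after transcription, so the mRNA levels below are not a measure of their activity.

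The libraries held 55466182 (AAV-GFP) and 48079335 (AAV-Wee1-AS) estimated counts. Defining hepatocyte markers (*Alb*, *Apoa1*, *Apob*, *Ttr*, *Serpina1c*, *Hnf4a* and *Cps1*) were all present, with a summed level of 76531 TPM (a level per transcript length, with the same sum for each library) with AAV-GFP and 85902 with AAV-Wee1-AS. *Alb* alone went from 37459 to 53289 TPM, and the other 6 summed to 39072 and 32613 TPM. In bulk liver, fewer cells of a type and less RNA per cell cannot be told apart. Across all 15857 genes, 31.0% had a ratio above 2 or below 0.5, 22.2% on the higher and 8.71% on the lower side. The ratio followed the GC content of the transcripts: in the 1500 genes with the lowest GC content the median log2 ratio was 1.51, and in the 1500 with the highest it was -0.70 (Spearman coefficient -0.69 across 14995 genes, which are not independent replicates). The UPR genes have transcripts of 40.6% to 58.2% GC, so the ratio of each of these genes is set beside this trend. Whether GC content or length had a part in any single ratio was not tested.

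With AAV-Wee1-AS, 7 of the 10 UPR genes were lower (50.5% of all genes were) and 3 were higher than with AAV-GFP. The deepest difference was that of *Trib3*, a pseudokinase gene induced by ATF4 and CHOP, which was 3.10-fold lower. It was the only UPR gene past 2-fold, where 31.0% of all genes were. *Herpud1*, *Xbp1*, *Atf4* and *Ddit3* were 1.31-fold to 1.57-fold lower, and *Atf6* was 1.89-fold higher. With the trends of GC content and length removed, *Trib3* was lower but within 2-fold, *Herpud1* was also lower, *Xbp1* was at -0.0072, and *Atf6*, *Hspa5*, *Dnajb9*, *Atf4* and *Ddit3* turned in direction. The turn of *Ddit3* depended on the transcript that gave the GC content. With the longest transcript of any kind, *Ddit3* stayed lower at -0.82 and *Xbp1* was at 0.042. The share of the *Xbp1* count assigned to the spliced transcript was 25.3% with AAV-GFP and 13.5% with AAV-Wee1-AS. The median log2 ratio of the 10 genes was -0.22, beside -0.016 over all genes. The counting interval lay wholly below a ratio of 1 for 6 of the genes (38.0% of all genes) and wholly above it for 3 (39.1% of all genes).

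**Figure D1:**
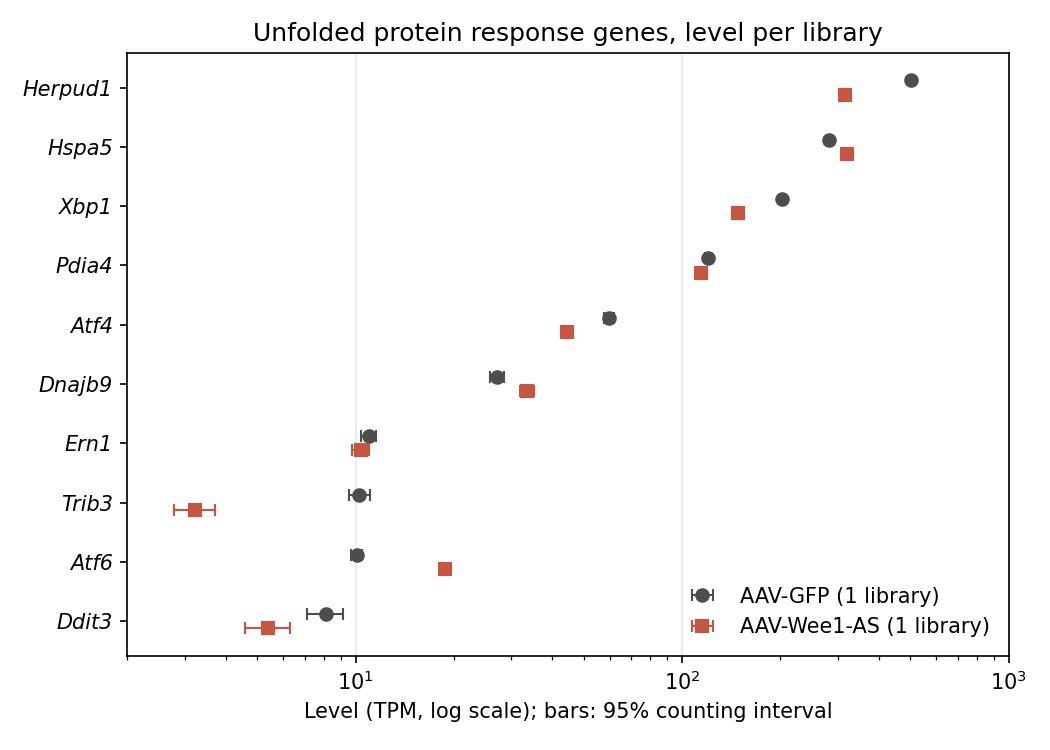
Level of the 10 UPR genes in TPM (log axis) in the AAV-GFP library (circles) and the AAV-Wee1-AS library (squares), with 95% counting intervals and 1 library per group. *Trib3* was at 10.3 and 3.22 TPM and *Atf6* at 10.1 and 18.8 TPM, while *Pdia4* and *Ern1* lay close together in both libraries.

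Of the sensors, *Ern1* (chr11:106397620-106487796 of GRCm38, as are all positions here), which encodes IRE1 alpha, had 1440 counts with AAV-GFP and 1150 with AAV-Wee1-AS, or 11.0 and 10.4 TPM. Its log2 ratio was -0.061 [-0.17 to 0.052], and it was the only UPR gene whose interval held a ratio of 1. The trend of all genes at its GC content (50.6%) and length was 0.42, and the log2 ratio was -0.48 with both trends removed and -0.88 with the length trend alone removed. *Atf6* (chr1:170704457-170868585) had 2485 and 3920 counts, or 10.1 and 18.8 TPM. Its log2 ratio of 0.92 [0.85 to 0.99] was the highest of the 10, and 76.0% of all genes had a lower one. The *Atf6* transcript is long and low in GC (46.0%), and the trend of all genes at that GC content and length was 1.10, which left -0.18 after its removal. *Eif2ak3*, which encodes the third sensor PERK and was named beside these genes, had 713 and 653 counts and a log2 ratio of 0.14 [-0.019 to 0.29].

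*Atf6* was listed with several overlapping transcripts, among which the counts were shared out by the authors' program. The transcript of 7463 bases had 1455 counts with AAV-GFP and 3428 with AAV-Wee1-AS, which was 58.6% [56.6 to 60.5] and 87.4% [86.4 to 88.5] of the gene. A predicted transcript of 7541 bases had 600 and 161 counts, or 24.1% and 4.11%. A predicted transcript of 7460 bases had 430 and 331 counts, or 17.3% and 8.44%. The higher *Atf6* count with AAV-Wee1-AS was thus that of the 7463-base transcript, while the log2 ratio was -1.62 for the 7541-base transcript and -0.11 [-0.33 to 0.096] for the 7460-base one. How many reads tell these transcripts apart was not tested.

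*Xbp1* (chr11:5520641-5525993) encodes the transcription factor made when IRE1 removes a short intron from its mRNA in the cytoplasm. Its 14972 counts with AAV-GFP and 9294 with AAV-Wee1-AS gave 203 and 148 TPM, and a log2 ratio of -0.42 [-0.46 to -0.39]. The trend of all genes at its GC content (53.0%) and length was also -0.42, which left -0.0072 after removal of the trends. The table listed an unspliced transcript of 2247 bases and a spliced one of 2221 bases. The difference of 26 bases is the length of the IRE1 intron. To place this intron, the full-length GENCODE vM21 transcript of *Xbp1* (2129 bases) was searched for the IRE1 cleavage motif CNGCAG. The motif had to stand at both ends of a stretch of 26 bases, inside the longest reading frame after its removal. The length was thus set by the search. It found the intron once, in exon 4 of 5. The intron lies at chr11:5524282-5524307 on the plus strand. It is shown within chr11:5524252-5524337 because, as far as their lengths show, only reads across these bases tell the 2 transcripts apart. Capitals mark the bases that are removed.

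Xbp1 intron window: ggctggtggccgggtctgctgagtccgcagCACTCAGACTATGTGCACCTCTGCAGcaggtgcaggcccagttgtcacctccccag
Xbp1 joined window: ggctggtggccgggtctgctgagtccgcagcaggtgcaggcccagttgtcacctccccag

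Since 26 is not a multiple of the codon length, the removal shifts the reading frame: the same start codon opened 267 codons in the unspliced sequence and 371 in the joined one. The spliced transcript had 3782 counts with AAV-GFP and 1254 with AAV-Wee1-AS. It was 2.51-fold lower, a log2 ratio of -1.33 [-1.42 to -1.24]. The unspliced transcript had 11190 and 8040 counts, a log2 ratio of -0.21 [-0.25 to -0.17]. The spliced share of the gene was 25.3% [24.57 to 25.96] with AAV-GFP and 13.5% [12.8 to 14.2] with AAV-Wee1-AS, 11.8 percentage points lower. Computed from TPM, the shares were 25.5% and 13.6%. The intervals treat the estimated counts as reads, and the error of the program's assignment is not in them.

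**Figure D2:**
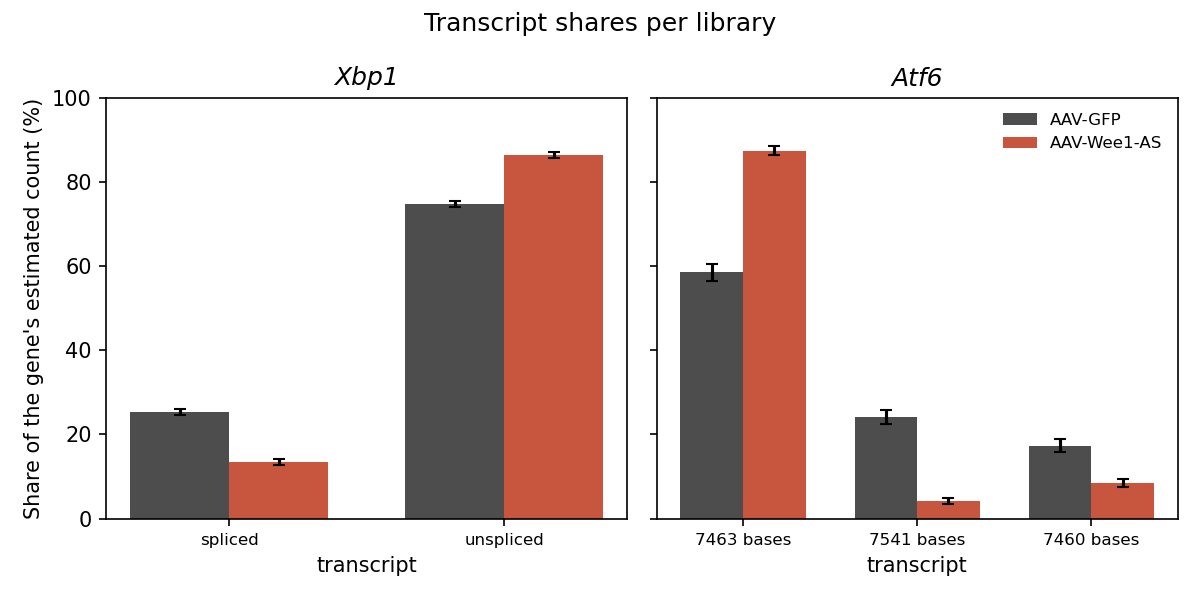
Share of the estimated count of *Xbp1* (left) and *Atf6* (right) assigned to each transcript with counts, for the AAV-GFP and AAV-Wee1-AS libraries, with 95% Clopper-Pearson intervals and 1 library per group. The spliced *Xbp1* share stood at 25.3% with AAV-GFP and 13.5% with AAV-Wee1-AS, and the 7463-base *Atf6* transcript at 58.6% and 87.4%.

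Among the genes of folding, *Hspa5* (chr2:34772090-34776529) encodes BiP, the ER chaperone that binds the sensors while they are inactive. It had 23607 counts with AAV-GFP and 22727 with AAV-Wee1-AS, or 282 and 319 TPM, and a log2 ratio of 0.21 [0.18 to 0.24]. *Dnajb9* (chr12:44205897-44210068), an ER cochaperone of BiP, had 1667 and 1745 counts, or 27.1 and 33.5 TPM, and a log2 ratio of 0.33 [0.23 to 0.43]. *Pdia4* (chr6:47796141-47813512), a protein disulfide isomerase that forms disulfide bonds in the ER, had 9888 and 7965 counts, or 120 and 114 TPM, and a log2 ratio of -0.048 [-0.091 to -0.0056]. Each of the 3 differed by at most 1.26-fold. All were below the trend of genes of like GC content and length, which was 0.77 for *Hspa5*, 1.22 for *Dnajb9* and 0.32 for *Pdia4*. After removal of the trends, the log2 ratio was -0.56 for *Hspa5*, -0.89 for *Dnajb9* and -0.37 for *Pdia4*. For *Hspa5* and *Dnajb9*, the direction therefore turned with the trends removed. *Hspa5* overlaps the end of *Rabepk*, which had 478 and 323 counts. The minor *Hspa5* transcript of 2616 bases held 13.6% and 18.3% of the gene.

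*Herpud1* (chr8:94386429-94395371) encodes a membrane protein of ER-associated degradation (ERAD), the route by which misfolded ER proteins reach the proteasome. It had the highest level of the 10 genes with AAV-GFP, 32362 counts or 503 TPM, against 17202 counts or 315 TPM with AAV-Wee1-AS. The log2 ratio was -0.65 [-0.67 to -0.62], 1.57-fold lower, and -0.21 after removal of the trends. Both listed transcripts were lower, at log2 ratios of -0.69 and -0.46. *Herpud1* stayed lower under each of the 10 alternative settings tried, between -0.85 and -0.17. Those that only changed the library scaling lowered its ratio and could not turn it.

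Of the ATF4 branch, *Atf4* (chr15:80255184-80257545), the transcription factor translated when eIF2 alpha is phosphorylated, had 3398 and 2143 counts, or 59.7 and 44.4 TPM, and a log2 ratio of -0.40 [-0.48 to -0.32]. *Ddit3* (chr10:127290793-127296291), which encodes CHOP, had 250 and 159 counts, or 8.10 and 5.40 TPM, and a log2 ratio of -0.39 [-0.69 to -0.10]. Its interval was the widest of those around the small differences, as its counts were low. *Trib3* (chr2:152337425-152344060) had 694 and 185 counts, or 10.3 and 3.22 TPM. Its log2 ratio was -1.63 [-1.89 to -1.41], and only 2.96% of all genes had a lower one. *Trib3* was thus the member of this branch that stood furthest from the rest, and its interval did not reach that of any other UPR gene.

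All 3 genes have transcripts of high GC content, 54.1% for *Atf4*, 55.4% for *Ddit3* and 58.2% for *Trib3*, where genes as a whole were lower. After removal of the trends, the log2 ratio was 0.15 for *Atf4* and 0.32 for *Ddit3*, so that both turned in direction, and -0.91 for *Trib3*, which stayed lower but within 2-fold. For *Ddit3*, the value after removal depended on the transcript that gave the GC content: with the longest transcript of any kind, it was -0.82. *Ddit3* also overlaps the ends of *Mars* (4493 and 3022 counts) and *Mbd6* (1184 and 877 counts). Its leading transcript of 871 bases held 77.6% of the gene with AAV-GFP and 54.1% with AAV-Wee1-AS, on 194 and 86 counts.

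**Figure D3:**
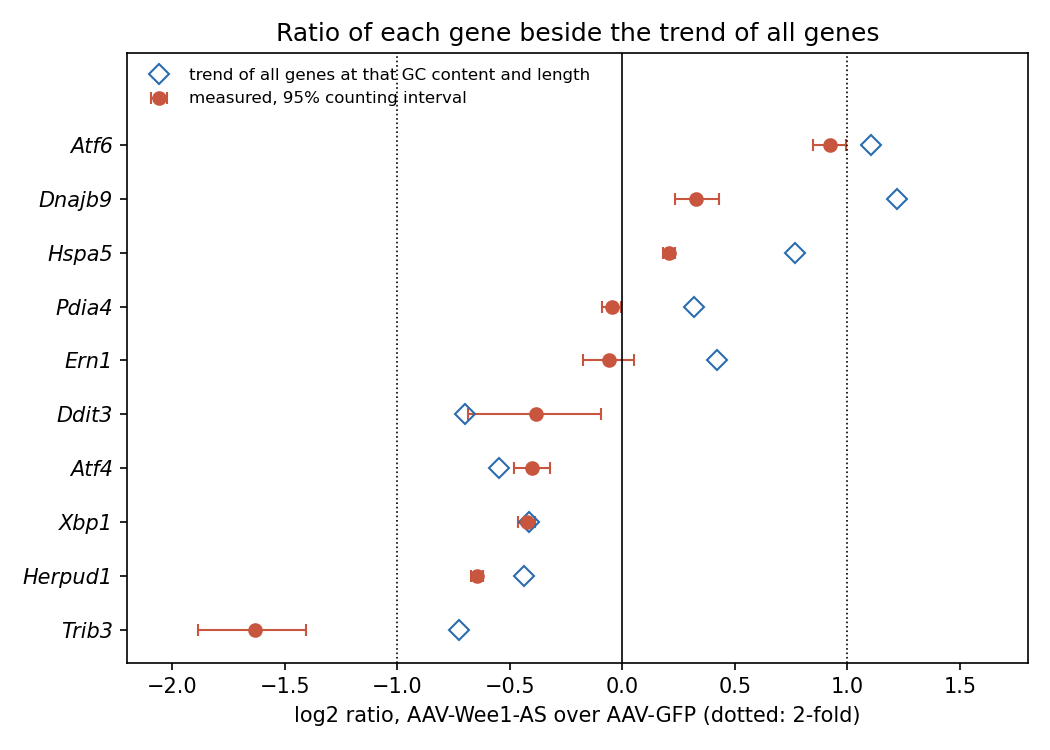
Log2 ratio of the 2 libraries, AAV-Wee1-AS over AAV-GFP, for the 10 UPR genes (filled points, bars are 95% counting intervals) beside the trend of all genes at the same GC content and transcript length (open diamonds), with dotted lines at 2-fold. *Trib3* at -1.63 lay below its trend of -0.73, *Dnajb9* at 0.33 lay below its trend of 1.22, and *Xbp1* lay on its trend.

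Ordered by level with AAV-GFP, the genes ran *Herpud1*, *Hspa5*, *Xbp1*, *Pdia4*, *Atf4*, *Dnajb9*, *Ern1*, *Trib3*, *Atf6* and *Ddit3*, from 503 to 8.10 TPM. The counting intervals of *Ern1*, *Trib3* and *Atf6* overlapped with those of their neighbours, so their order is not set. With AAV-Wee1-AS, the order was *Hspa5* (319 TPM), *Herpud1* (315 TPM), *Xbp1*, *Pdia4*, *Atf4*, *Dnajb9*, *Atf6*, *Ern1*, *Ddit3* and *Trib3* (3.22 TPM), and only the intervals of *Hspa5* and *Herpud1* overlapped. *Trib3* was thus above *Ddit3* with AAV-GFP and below it with AAV-Wee1-AS. The summed level of the 10 genes was 1234 TPM with AAV-GFP and 1013 TPM with AAV-Wee1-AS. Within this sum, *Herpud1* alone went from 503 to 315 TPM and *Xbp1* from 203 to 148 TPM, while *Hspa5* went from 282 to 319 TPM.

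Over the 10 genes, the log2 ratio ran with GC content (Spearman coefficient -0.84, a description over genes of the same pair of libraries). With the trends removed, 2 genes were higher and 8 lower, the median was -0.29 beside -0.0056 over all genes, and none of the 10 was past 2-fold, where 14.8% of 14995 genes were, 6.74% above and 8.06% below. *Trib3* and *Dnajb9* then had the lowest values, -0.91 and -0.89, and 9.62% and 9.88% of genes lay below them. *Ern1* was at -0.48 and *Atf6* at -0.18. *Ern1*, *Herpud1* and *Trib3* were the genes that kept their direction under each of the 10 alternative settings. Several of these settings could not turn a lower gene. Scaling by library totals, by DESeq2 or by the upper quartile lowered the ratio of each of the 10 genes. *Ern1* and *Trib3* list 1 transcript each, so the most abundant transcript repeated the measured value.

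**Figure D4:**
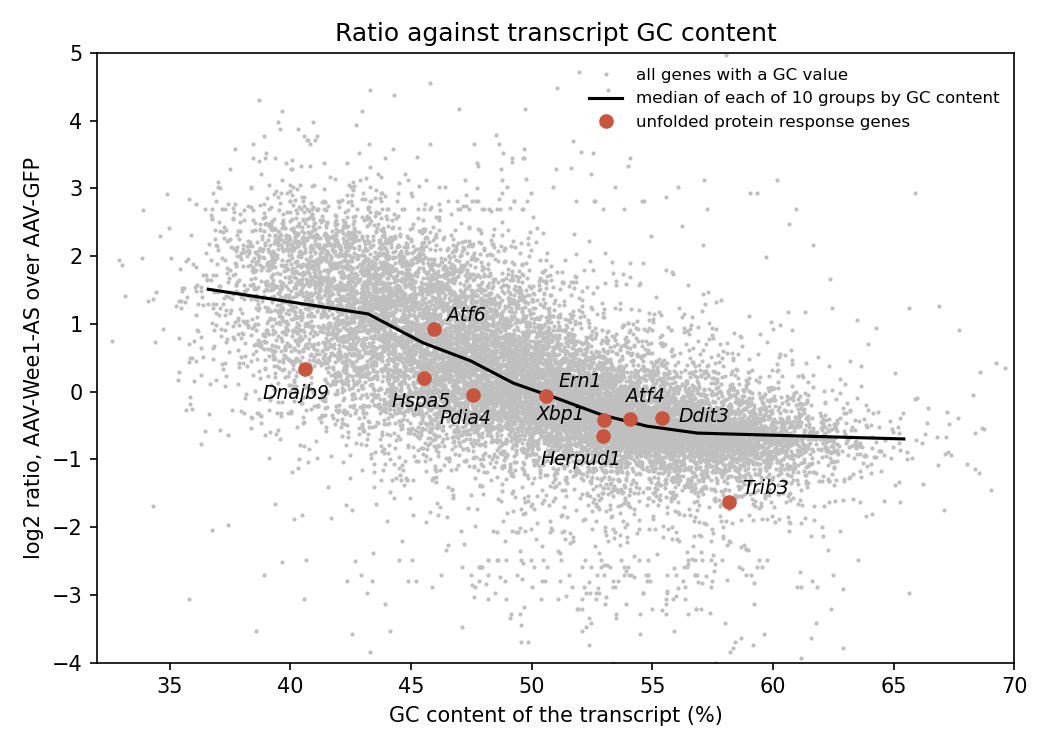
Log2 ratio of the 2 libraries, AAV-Wee1-AS over AAV-GFP, against the GC content of the transcript (%) for 14995 genes (grey, those beyond the axes are not drawn), with the medians of 10 groups of genes of rising GC content (line) and the 10 UPR genes (named points). The line falls from 1.51 to -0.70, and *Dnajb9*, *Hspa5*, *Pdia4*, *Xbp1*, *Herpud1* and *Trib3* lie below the median of their group.

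Many UPR genes carry response elements just before the start of transcription. Promoter windows of RefSeq (GRCm38.p6, from 250 bases before to 50 after the start) were listed for 9 of the 10 genes, all but *Atf6*. They were searched on both strands for the ER stress response element ERSE (CCAAT and CCACG, with 9 free bases between them), for ERSE-II (ATTGG and CCACG, with 1 free base between them), for the core of the UPR element bound by ATF6 and XBP1 (TGACGTG), and for an amino acid response element bound by ATF4 (TTGCATCA). Matches were found in 2 of the 9 windows, those of *Hspa5* and *Herpud1*. The *Hspa5* window held an ERSE at 65 to 47 bases and the UPR element core at 157 to 151 bases before the start. The *Herpud1* window held an ERSE-II at 52 to 42 bases and the amino acid response element at 112 to 105 bases before it. No match elsewhere says only that these letters are not in those windows. The 200 bases before the start of both genes are printed, since *Hspa5* holds an ERSE and *Herpud1* an ERSE-II. As measured, the 2 genes differed in direction between the libraries. With the trends removed, both were lower, at -0.56 for *Hspa5* and -0.21 for *Herpud1*. *Hspa5* is at chr2:34771890-34772089 and *Herpud1* at chr8:94386229-94386428, both on the plus strand, with the matches in capitals.

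Hspa5 promoter: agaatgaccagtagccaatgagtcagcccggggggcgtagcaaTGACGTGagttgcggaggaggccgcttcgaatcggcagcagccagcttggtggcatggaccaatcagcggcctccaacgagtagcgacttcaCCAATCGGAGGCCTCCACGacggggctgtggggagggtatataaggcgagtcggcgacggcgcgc
Herpud1 promoter: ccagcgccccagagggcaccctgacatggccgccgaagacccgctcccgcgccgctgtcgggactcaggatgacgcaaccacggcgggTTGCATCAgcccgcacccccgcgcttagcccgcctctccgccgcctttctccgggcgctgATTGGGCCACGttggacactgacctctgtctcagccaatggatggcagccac

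Of all 32851 promoter windows, 0.119% held an ERSE, 0.0365% an ERSE-II, 2.01% the UPR element core and 0.895% the amino acid response element. Among genes past the count minimum, the median log2 ratio was 0.14 for the 21 with an ERSE, 0.41 for the 7 with an ERSE-II, 0.14 for the 315 with the UPR element core and -0.24 for the 74 with the amino acid response element, beside -0.016 for all genes. After removal of the trends with GC content and length, the medians were -0.091, 0.29, 0.012 and -0.044 in the same order, so that of the ERSE genes turned. A match is a description of the sequence and not a binding site.

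The other genes of the pathway were taken from 6 lists of 202 genes in all, of which 200 passed the count minimum. Their counts and medians stand beside those of all genes, of which 22.2% were above 2-fold and 8.71% below 0.5. As measured, 5 of 22 sensors and regulators were above 2-fold and 1 was below 0.5. For chaperones these counts were 9 and 1 of 36, and for ERAD genes 5 and 0 of 31. For ATF4 and CHOP targets they were 3 and 8 of 41. The secretory list had 10 and 1 of 52, and the cell death list 4 and 1 of 18. For each gene named, the log2 ratio as measured is followed by the value after removal of the trends with GC content and length, called the adjusted value here. When adjusted, 7564 of 14995 genes were lower, 6.74% were above 2-fold and 8.06% were below 0.5. Of 22 further sensors and regulators, 11 were higher and 11 lower with a median of 0.028 as measured, and the counts were the same, though 4 genes turned to higher and 4 to lower, with a median of 0.018 when adjusted. *Creb3l3*, which encodes a liver-enriched relative of ATF6, had 23985 and 14053 counts and a log2 ratio of -0.51, which turned to 0.12 when adjusted. *Ppp1r15a*, which encodes the GADD34 subunit that reverses eIF2 alpha phosphorylation, was lower at -0.71 (adjusted -0.16), with 625 and 318 counts. *Dnajc3*, which encodes the ER cochaperone P58IPK, was higher at 1.63 (adjusted 0.35), with 3168 and 8185 counts. *Map3k5*, which encodes the stress kinase ASK1, was higher at 2.01 (adjusted 1.65), with 575 and 1930 counts. The eIF2 alpha kinase gene *Eif2ak2*, which overlaps *Gm6548* and may share reads with it, was higher at 2.31 (adjusted 1.21). *Map3k5* and *Eif2ak2* were the only genes of this list past 2-fold when adjusted. *Creb3l1* and *Traf2* had the lowest measured ratios of this list among genes with at least 100 counts, -1.26 (adjusted -0.55) and -0.88 (adjusted -0.42).

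Of 36 chaperone and folding genes, 15 were higher and 21 lower with a median of -0.21 as measured, and the counts were the same, though 7 genes turned to higher and 7 to lower, with a median of -0.12 when adjusted. *Hsp90b1*, which encodes the ER chaperone GRP94, had 12961 and 23978 counts and was higher at 1.15 (adjusted 0.25). *Canx*, which encodes the lectin chaperone calnexin, was higher at 1.02 and turned to -0.28 when adjusted. *Pdia3* was higher at 0.67 (adjusted 0.23), *Tmx1* at 1.65 (adjusted 0.42) and *Hspa13* at 1.86 (adjusted 0.36), and none of these genes was past 2-fold when adjusted. The lectin chaperone gene *Calr* was lower at -0.63 (adjusted -0.57), with 66146 and 35684 counts. *Hyou1* and *Manf* were both lower at -0.52 (adjusted -0.32 and -0.34). *Creld2* at -0.58 and *Sdf2l1* at -0.56 turned to 0.033 and 0.18 when adjusted. *Erp29* was lower at -0.87, and at an adjusted -1.75 it was the only gene of this list past 2-fold. *Fkbp10* was lowest as measured, at -1.44 (adjusted -0.79). *Pdia6* had -0.18 (adjusted -0.28) and *Dnajb11* -0.24 (adjusted -0.15).

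Of 31 ERAD genes, 16 were higher and 15 lower with a median of 0.025 as measured, while 11 were higher and 20 lower with a median of -0.13 when adjusted. *Herpud1*, at -0.65 (adjusted -0.21), was below both medians. *Derl1*, which encodes Derlin-1 of the ERAD machinery, was lower at -0.65 (adjusted -0.79), with 11379 and 6042 counts. *Syvn1*, which encodes the ubiquitin ligase HRD1, was lower at -0.72 (adjusted -0.18). Its partner *Sel1l* was higher at 0.62 and *Edem1* at 0.59, and both turned when adjusted, to -0.15 and -0.28. *Edem3*, also of the mannose-trimming EDEM family, had the highest measured ratio of all 6 lists, 2.86 [2.67 to 3.08], with 232 and 1412 counts, and an adjusted value of 1.49. *Rnf139* was higher at 1.93 (adjusted 0.53). *Fam20c*, which encodes a kinase of secreted proteins, and *Rnf5* were lowest as measured, at -0.76 (adjusted -0.13) and -0.73 (adjusted -0.27).

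Of 41 targets of ATF4 and CHOP, 30 were lower and 11 higher, and the median was -0.61, the lowest of the 6 lists. Past the fold limits, 8 were below 0.5 and 3 above 2, and these counts moved with the scaling, as given at the end. When adjusted, 30 of the 41 were lower, 25 of them among those lower as measured, and the median was -0.21. Of the 41, 4 were then below 0.5 and none above 2, beside 8.06% and 6.74% of all genes. Of the rest, 5 turned from lower to higher (*Cebpb*, *Slc7a5*, *Shmt2*, *Aars* and *Mars*) and 5 from higher to lower (*Slc38a2*, *Cth*, *Vldlr*, *Tars* and *Xpot*), named after their values were seen. *Nupr1*, a stress-induced chromatin protein gene, was lower at -2.02 [-2.84 to -1.44] (adjusted -1.32), with 114 and 22 counts. *Atf3*, a stress-induced transcription factor gene, was lower at -1.89 [-2.25 to -1.58] (adjusted -1.54), with 410 and 91 counts. *Fgf21* and *Gdf15* encode hormones that the stressed liver secretes. *Fgf21* was lower at -1.08 (adjusted -0.44), with 367 and 144 counts, and *Gdf15* at -1.04 (adjusted -0.21), with 1050 and 423 counts. *Chac1*, which encodes a glutathione-degrading enzyme, was lower at -0.98 (adjusted -0.24) and *Sesn2* at -0.77 (adjusted -0.19). *Trib3*, with -1.63 (adjusted -0.91), lay between *Atf3* and *Fgf21* among these on both scales. Against this direction, the asparagine synthetase gene *Asns* was higher at 1.03 (adjusted 0.76), on 59 and 102 counts, the tRNA synthetase gene *Eprs* at 1.33 (adjusted 0.64) and *Cebpg* at 1.43 (adjusted 0.21).

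The 52 genes of the secretory pathway had a median of -0.12, with 24 higher and 28 lower, and when adjusted a median of -0.11, with 19 higher and 33 lower. The translocon gene *Sec61a1* was lower at -0.72 (adjusted -0.33), while its partner *Sec63* was higher at 1.69 (adjusted 0.36). Among genes with at least 100 counts, *Ssr2* and *Ssr4* were lowest at -0.84 (adjusted -0.15) and -0.77 (adjusted -0.065), and *Srp54a* and *Golgb1* highest at 1.75 (adjusted 0.42) and 1.74 (adjusted 0.94). The COPII gene *Sec24d* was at -0.018 (adjusted -0.093). Of 18 genes of cell death, 13 were lower and 5 higher with a median of -0.33, and 11 were lower and 7 higher with a median of -0.14 when adjusted. *Bax* and *Bcl2l1* have opposite roles in apoptosis. *Bax* was lower at -0.80 and turned to 0.078 when adjusted, *Bcl2l1* was lower at -0.81 (adjusted -0.23), and *Bfar* was higher at 1.14 (adjusted 0.75).

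**Figure D5:**
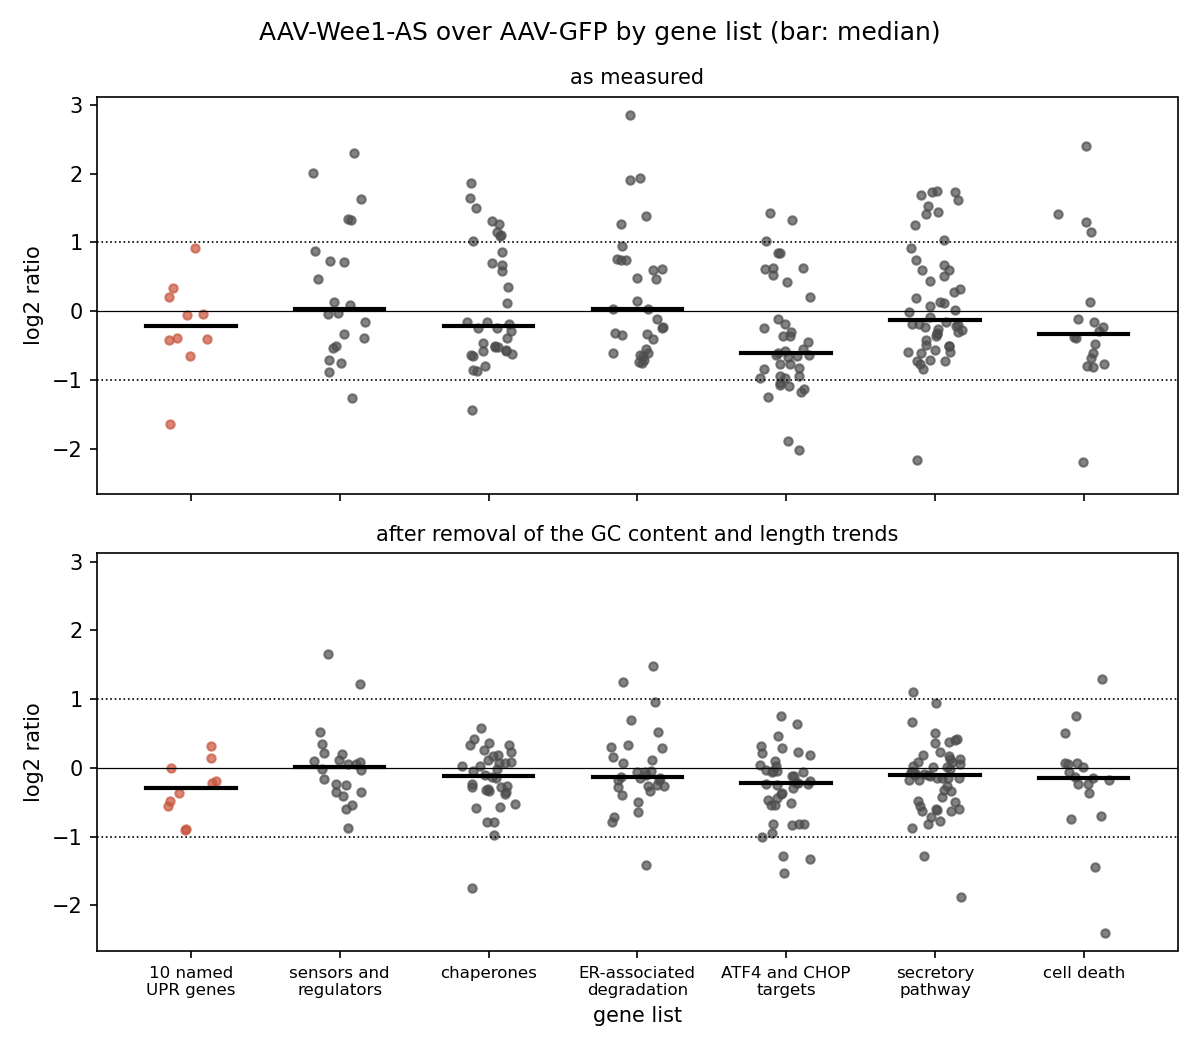
Log2 ratio of the 2 libraries, AAV-Wee1-AS over AAV-GFP, for the 10 named UPR genes and for each list of pathway genes, as measured (top) and after removal of the trends with GC content and length (bottom), 1 point per gene with bars at the medians and dotted lines at 2-fold. The list of ATF4 and CHOP targets had the lowest median as measured, -0.61, and all medians lay between -0.29 and 0.018 after removal.

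Markers of other cells had the following values. All 4 measured neutrophil markers were lower (median -0.89, adjusted -1.27, summed level 14.6 and 7.08 TPM, *Ly6g* at 0 in both libraries). For Kupffer cells the summed level was 333 and 270 TPM, but *Cd5l* alone went from 208 to 121 TPM, and 4 of 6 markers were higher (median 0.75, adjusted 0.39). For stellate cells it was 269 and 238 TPM, but *Ecm1* alone went from 178 to 123 TPM. Of these 6 markers, 4 were higher as measured (median 0.29, with *Lrat* at 1.46 and *Hgf* at 1.52), and 3 when adjusted (median -0.0038, with *Lrat* at 0.015 and *Hgf* at 0.13). Endothelial markers summed to 146 and 119 TPM, with 4 of 6 lower (5 when adjusted). Of these, *Clec4g* alone went from 78.8 to 54.7 TPM, and the other 5 summed to 66.8 and 64.0 TPM. Cholangiocyte markers summed to 44.1 and 37.9 TPM, of which *Spp1* alone held 40.4 and 34.3 TPM. In this list, 3 of 5 were lower (2 when adjusted). Plasma and B cell markers summed to 9.11 and 7.49 TPM and split into 3 higher and 3 lower (4 and 2 when adjusted), with *Jchain* at 1.57 (adjusted 0.34), *Ms4a1* at 0 and 23 counts and *Tnfrsf17* at 0 in both libraries. Their most abundant marker, *Derl3* (4.51 and 3.32 TPM), is also in the ERAD list. T and NK cell markers summed to 5.93 and 4.43 TPM, with 5 of 6 lower (4 when adjusted). Of the pancreatic markers, *Cela1* had 16.9 and 24.0 TPM, and *Cpa1*, *Prss2*, *Pnlip* and *Amy2b* were at 0 in both libraries. The part of these cells in the levels of the UPR genes was not tested.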

How the data were processed

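Liver poly-A RNA (TruSeq Stranded mRNA, paired-end) was measured in 1 AAV-GFP and 1 AAV-Wee1-AS library, grouped by their GEO titles. The authors deposited 1 table of 129299 mm10 RefSeq transcripts with, per library, an estimated count (not normalized, shared out between overlapping transcripts), an FPKM value (fragments per kilobase of transcript, scaled to library size) and a TPM value. The submitters' processing notes name Trimmomatic 0.38, HISAT2 2.1.0, SAMtools 1.9 and StringTie 2.1.3b. Whether reads were assigned by strand is not given in the sources used here.

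Estimated counts, which are whole numbers in the deposited table, were summed by symbol and scaled by TMM (edgeR 4.0.16, R 4.3.3; factors 1.02 and 0.980). Log2 ratios used a prior count of 2, and genes with at least 10 counts in 1 library were kept. Genes above a ratio of 2 or below 0.5, the study's fold limits, were counted. GC content and length came from the longest protein-coding GENCODE vM21 transcript (14995 genes, 94.6%), and lowess trends with both (span 0.3, 5 cycles) were removed. Scripts ran in Python 3.11.15 (statsmodels 0.14.6, scipy 1.17.1, numpy 2.4.6, pandas 2.3.3, matplotlib 3.10.9) and were tested on simulated data. All 10 symbols matched RefSeq positions.

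The UPR genes, lists and tests were chosen with earlier results of these data known. Named are the 10 genes, landmark genes marked in each list, and the 2 highest and 2 lowest of each list past 100 counts in either library. A gene that this rule names is not reported here. Alternatives tried were scaling by the upper quartile, by DESeq2 1.42.0 or by library totals, FPKM or TPM with a pseudocount of 1, a prior count of 0.5, other count minimums, trend removal, and the most abundant transcript alone. A GC content from the longest transcript of any kind was added after the data were seen.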

Additional observations from a re-analysis of the deposited data

How the results depend on the processing

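No paired analysis was possible because each group had 1 library, and for the same reason no library could be left out. The count of UPR genes past 2-fold was 1, *Trib3*. It became 0 with the GC and length trends removed, by either choice of transcript, and 2 with the most abundant transcript alone, by its construction through *Atf6*, whose leading transcript was 2.83-fold higher. All genes past 2-fold numbered 4908, of which 71.9% were higher. They numbered 1336 with FPKM, 2046 with TPM and 2218 with the trends removed, 6894 of 45777 with no count minimum. The higher share was 56.8% under the upper quartile, which lowered the median of all genes by 0.20, 59.4% with the length trend removed and 45.5% with both removed. Of the ATF4 and CHOP targets, 8 were below 0.5 and 3 above 2. These counts were 14 and 2 under the upper quartile and 11 and 2 with library totals. They were 3 and 2 with FPKM, and 10 and 6 with the most abundant transcript alone. The median of the secretory list moved from -0.12 to -0.33 under the upper quartile, and that of the ATF4 and CHOP targets from -0.61 to -0.21 with the trends removed. The cause was not tested.

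Of the 10 settings, the direction held in 7 for *Hspa5* (0.0025 under the upper quartile), in 8 for *Atf4*, *Atf6* and *Dnajb9*, in 9 for *Ddit3*, *Xbp1* and *Pdia4*, and in all for *Ern1*, *Herpud1* and *Trib3*. The alternative library scalings lowered all of these ratios, so they could not turn a lower gene. *Trib3* ranged from -1.84 to -0.88 and was below 0.5 in 8. The turns came with removal of trends, for *Pdia4* of length alone (0.0060) and for *Hspa5* of length alone too (-0.014). With 1 library per group, depth limits counting error only.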
